A study of Homo sapiens with 7 samples.

Results

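Mitochondrial ribosomal protein genes were followed in poly(A) RNA of the acute myeloid leukemia line MOLM13, which is of human origin. The members were the genes whose symbol in the deposited FPKM table is MRPL or MRPS with a number and, for some, a letter A to C, 71 of 11408 genes with values. The choice used names alone and no measured value. Of the 7 libraries, 4 were labelled with 1 of 2 guide RNAs against ZFP36L2, called guide 3 and guide 5 as in the deposited columns, with 2 libraries each. The other 3 libraries carried sgRosa, the non-targeting guide. All cells were harvested at day 6 after transduction. Whether the cells were clones or a pool, and whether replicates came from separate cultures, is not given in the sources used here, so p-values measure the spread between these libraries, which may be technical. ZFP36L2 encodes a protein that binds AU-rich stretches of mRNA and speeds their decay. ZFP36L2 RNA itself was higher in the libraries labelled ZFP36L2, at 269 and 322 FPKM with guide 3 and at 174 and 164 FPKM with guide 5, against 80.2, 79.3 and 73.9 FPKM with sgRosa. Edited genes can keep their RNA, so this level says nothing on whether the protein was lost, and all directions given here refer to the libraries as labelled.

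The mitochondrial ribosome translates the few mRNAs made from mitochondrial DNA, all of which encode inner-membrane subunits of the respiratory chain and ATP synthase. Its RNA core comes from the mitochondrial genome, and its proteins are encoded in the nucleus, made in the cytosol and imported. MRPL genes encode proteins of the large subunit, which forms peptide bonds, and MRPS genes those of the small subunit, which decodes the mRNA. Some members descend from bacterial ribosomal proteins and others exist in mitochondrial ribosomes alone. A few names mislead: the products of MRPS18A and MRPS30 sit in the large subunit, and that of MRPS36 is a subunit of the oxoglutarate dehydrogenase complex. With these placed by their known position, 46 members belonged to the large subunit, 24 to the small subunit and 1 to neither.

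The 3′ UTRs of the members were searched for TATTTAT, the core of the AU-rich element that ZFP36 family proteins are known to bind. It was present in 9 members, or 12.7%, against 29.7% of all 11408 genes. The median 3′ UTR had 389 bases in members and 1066 bases in all listed genes, and the shares were not adjusted for length. Genes without an annotated 3′ UTR count among the 11408. The windows below show a site, in capitals, with 10 bases on either side, from GENCODE 29 transcripts on GRCh38; they are given because 7 of the 8 tested members that hold the letters fell in the comparison described further on, MRPL17 being the exception.
MRPL50: attaggtcatTATTTATgaaaagtttt
MRPL19: tgtgggtctaTATTTATccattgtatt
MRPL42: cttatatgtaTATTTATgcatatacat
MRPS33: agtgcgatagTATTTATtggagtatgt
MRPL35: gaaagataggTATTTATtttttctaga
MRPL22: tgtaaatgaaTATTTATaaggctttgc
MRPS10: ctagttgtatTATTTATcctatgattc
MRPL17: tatataaattTATTTATtttttccttc
The MRPL50 site starts at base 232 of a 3′ UTR of 2833 bases, and the MRPL17 site at base 195 of one of 1336 bases. MRPS33 held 3 sites, MRPL19, MRPL42 and MRPL35 held 2 each, and MRPL50, MRPL22, MRPS10, MRPL17 and MRPL33 held 1 each. The MRPL42 sites lie at bases 5843 and 12478 of an annotated 3′ UTR of 14992 bases, the longest among the members. MRPL33 was not tested for change. A match to the letters is a description of the sequence, not a site shown to be bound.

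Promoters of 62 members were found in the RefSeq set of GRCh38.p14, which gives 300 bases around each start, most of them upstream. Searched on both strands, CCGGAAG, a core of ETS factors such as GABP, was in 43.5% of these members against 23.9% of 8371 listed genes with a promoter. GCCATCTTG, a YY1 core, was in 14.5% against 3.57%. GCATGCGC, an NRF1 core, was in 9.68% against 6.92%, the E-box CACGTG in 12.9% against 13.1%, and TATAAA in 4.84% against 8.02%. The ETS core stood in 9 of 19 matched members that fell, 1 of 3 that rose and 13 of 33 that were not called. The 3 promoters below show, in capitals, the ETS and YY1 cores in a member that fell (MRPS10, chr6:42217812-42218111, minus strand), one that rose (MRPL28, chr16:370489-370788, minus strand) and one of high level that was not called (MRPL51, chr12:6493213-6493512, minus strand).
MRPS10: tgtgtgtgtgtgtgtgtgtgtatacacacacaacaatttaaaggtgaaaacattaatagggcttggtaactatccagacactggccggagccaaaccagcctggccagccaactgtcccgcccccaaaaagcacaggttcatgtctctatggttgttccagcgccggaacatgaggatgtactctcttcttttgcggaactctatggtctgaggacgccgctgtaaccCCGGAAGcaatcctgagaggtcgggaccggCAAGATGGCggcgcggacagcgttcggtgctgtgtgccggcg
MRPL28: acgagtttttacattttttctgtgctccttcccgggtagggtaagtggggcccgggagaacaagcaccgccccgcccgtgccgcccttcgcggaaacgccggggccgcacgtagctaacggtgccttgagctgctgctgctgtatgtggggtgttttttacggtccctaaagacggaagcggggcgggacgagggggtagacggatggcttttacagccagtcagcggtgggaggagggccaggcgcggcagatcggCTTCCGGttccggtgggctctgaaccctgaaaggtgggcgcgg
MRPL51: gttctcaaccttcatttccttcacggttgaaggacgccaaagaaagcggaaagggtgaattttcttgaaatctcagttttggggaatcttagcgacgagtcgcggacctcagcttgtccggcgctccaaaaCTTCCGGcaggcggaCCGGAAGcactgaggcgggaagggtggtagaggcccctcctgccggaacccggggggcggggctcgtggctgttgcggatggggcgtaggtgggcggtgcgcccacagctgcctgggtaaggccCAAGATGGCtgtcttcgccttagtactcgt
MRPS10 and MRPL51 hold both cores, and MRPL28 the ETS core without the YY1 core. The cores do not overlap one another in these windows.

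Reads assigned to listed genes, recovered as whole numbers from the deposited values, ran from 33735298 to 38807816 with guide 3, from 28088053 to 36556997 with guide 5 and from 16907955 to 25164359 with sgRosa. Single members had between 32 and 9323 reads in a library. The deposited FPKM divide reads by the full span of a gene with its introns, so a long gene has a low value; 62 members reached 1 FPKM in at least 2 libraries and were tested, and 9 did not. Library sgRosa replicate 2 stood apart, with an adjusted library size of 0.850 of its listed reads against 0.972 to 1.10 in the other 6 libraries. It was also the highest of the 3 controls for 34 of the 71 members and the lowest for 20. All 6 myeloid markers had values, and among the T cell markers CD3D was at 5.70 to 7.98 CPM in the guide libraries and at 13.6 to 18.5 CPM with sgRosa; markers of other lineages were not analysed here. The summed myeloid markers, mostly the lysozyme gene LYZ, stood at 10705 to 19832 CPM in the guide libraries against 4855 to 7788 CPM with sgRosa. Of the 6, LYZ, SPI1 and CEBPA rose, FLT3 (log2 change -0.71, adjusted p = 0.00574) and MPO (-0.74, adjusted p = 0.00709) fell, and CD33 was not called. Their part in the results below was not tested.

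As a sum, member RNA was lower in every guide library. Members took 0.457% and 0.476% of the listed reads with guide 3 and 0.421% and 0.423% with guide 5, against 0.554%, 0.508% and 0.550% with sgRosa. In CPM, reads scaled to the authors' adjusted library size, the sums were 4700 and 4833 with guide 3 and 4124 and 4072 with guide 5, against 5055, 5977 and 5093 with sgRosa. The groups did not overlap on either scale, and guide 5 lay below guide 3. The large subunit held 1.95 and 2.07 times the CPM of the small subunit with guide 3 and 2.02 and 1.97 times with guide 5, against 1.86, 1.98 and 1.87 times with sgRosa. These ranges overlapped. In bulk RNA, fewer cells of a type and less RNA per cell cannot be told apart.

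For both guides against sgRosa, 21 of the 62 tested members fell and 3 rose, with 38 not called (limma, adjusted p under 0.05 over all 6783 tested genes). That is 33.9% of members fallen, where 19.7% of all tested genes fell, and 4.84% risen, where 22.5% of all tested genes rose. The median log2 change of the members was -0.25, against -0.005 for all tested genes, on the scale of log2(FPKM + 0.5) that is used for every log2 change here. Of the members 44 had a negative change and 18 a positive one. Each of the 21 that fell was lower in all 4 guide libraries than in any sgRosa library, as were 5 more that did not pass the test, MRPS25, MRPL13, MRPL44, MRPS14 and MRPL11, named after their values were seen. That makes 26 of 62, or 41.9%, where 24% of all tested genes were so ordered. Of the 3 that rose, MRPL34 alone was above every control library in all guide libraries, 1 of 62 tested members where 21% of all tested genes were so ordered. With replicates left out, the count of falls was 5 without guide 3 replicate 2, 6 without guide 5 replicate 1, 12 without guide 3 replicate 1 or guide 5 replicate 2 and 13 without sgRosa replicate 1; it was 23 without sgRosa replicate 2 or 3. Of all tested genes 8.40% fell without guide 3 replicate 2, beside 8.06% of members, and 8.28% without guide 5 replicate 1, beside 9.68% of members. In the other 5 such fits 12.2% to 25.2% of all tested genes fell, beside 19.4% to 37.1% of members. Where a guide group keeps 1 library, that library is assumed to vary like the other groups. The count of rises was 6 without sgRosa replicate 3 and 2 without any other library.

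**Figure D1:**
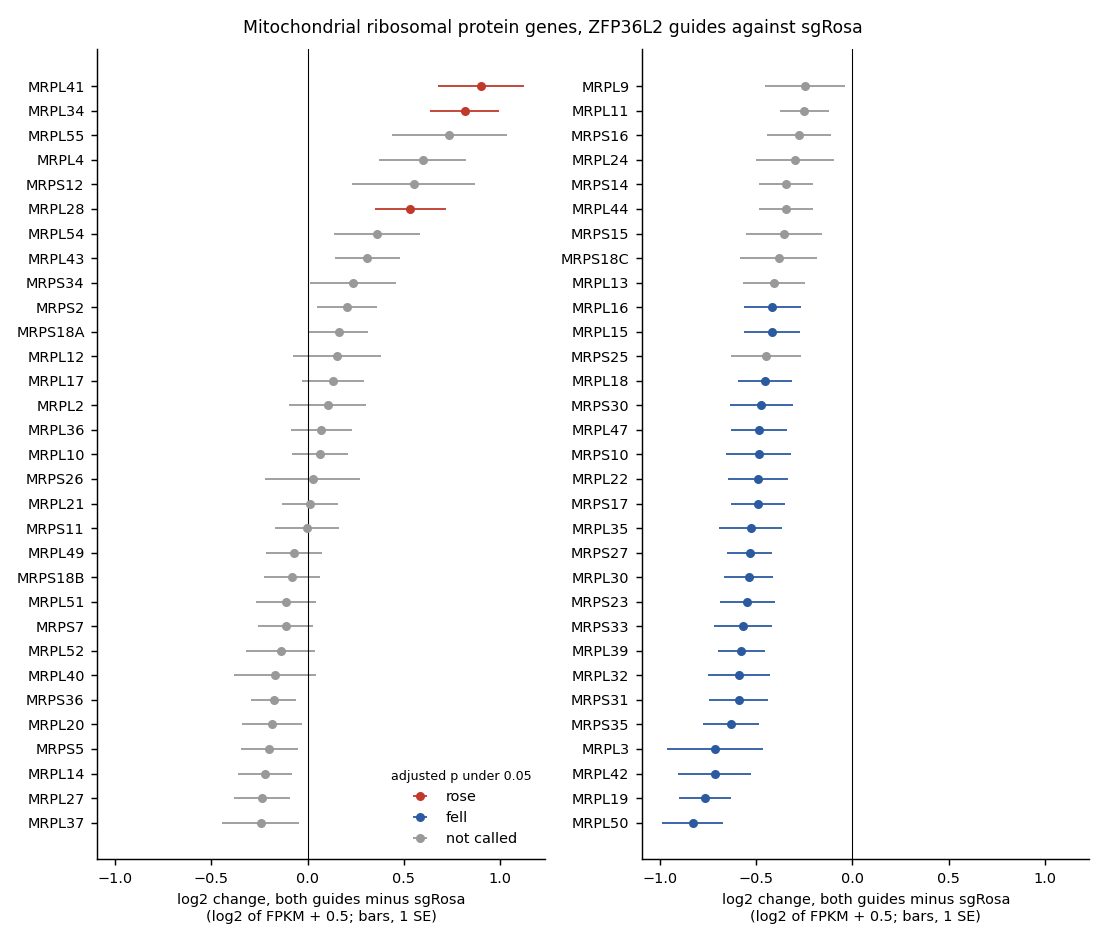
Log2 change of each of the 62 tested members for both guides minus sgRosa (x axis, log2 of FPKM + 0.5; points are estimates, bars 1 SE, from 4 guide and 3 sgRosa libraries), ordered by size down both columns. Points left of 0 are lower in the guide libraries; 21 members fell, from MRPL50 at -0.83 to MRPL16 at -0.42, and 3 rose, MRPL28, MRPL34 and MRPL41.

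The members with the largest falls came from both subunits and from both descents. MRPL50, a mitochondria-specific protein of the large subunit (ENSG00000136897, chromosome 9, 101387633 to 101398614, minus strand, GRCh38), had 3.34 and 2.71 FPKM with guide 3 and 2.44 and 2.74 FPKM with guide 5, against 5.68, 6.11 and 4.39 FPKM with sgRosa. Every guide library lay below every sgRosa library, and the log2 change was -0.83 ± 0.16 (SE, adjusted p = 0.00307). It is among the members with the letters TATTTAT shown above. MRPL19, whose bacterial relative lies at the interface of the subunits, had 0.979 and 0.821 FPKM with guide 3 and 1.04 and 1.17 FPKM with guide 5, against 2.14, 2.37 and 1.69 FPKM with sgRosa. The groups did not overlap, with a log2 change of -0.77 ± 0.14 (adjusted p = 0.00204). MRPL42, found in the large subunit of mitochondrial ribosomes alone, had 2.35 and 2.10 FPKM with guide 3 and 2.25 and 2.598 FPKM with guide 5, against 4.17, 5.56 and 3.01 FPKM with sgRosa. Its log2 change was -0.72 ± 0.19 (adjusted p = 0.0132), with adjusted p = 0.0532 without guide 3 replicate 2 and 0.0520 without guide 5 replicate 1.

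MRPL3, the relative of a bacterial protein next to the peptide-bond-forming centre, had 3.63 and 3.5 FPKM with guide 3 and 3.54 and 3.88 FPKM with guide 5, against 4.70, 10.7 and 4.87 FPKM with sgRosa. The high control is sgRosa replicate 2. The log2 change was -0.71 ± 0.25 (adjusted p = 0.0419) and came to -0.35 (adjusted p = 0.0256) without that library; leaving out any 1 guide library took adjusted p to between 0.0637 and 0.102. MRPL32, a large-subunit protein with a bacterial relative that is cut by the m-AAA protease on import, had 1.89 and 1.74 FPKM with guide 3 and 1.52 and 1.88 FPKM with guide 5, against 2.70, 3.70 and 2.39 FPKM with sgRosa. All guide libraries lay below all controls (log2 change -0.59 ± 0.16, adjusted p = 0.0160). MRPL32 lost its call under 2 of the 20 alternatives that tested it. These left out guide 3 replicate 2, with a change of -0.57, or guide 5 replicate 1, with -0.53. MRPL39, a mitochondria-specific large-subunit protein, had 0.979 and 0.924 FPKM with guide 3 and 0.982 and 1.07 FPKM with guide 5, against 1.98, 1.67 and 1.53 FPKM with sgRosa. The 4 guide values lay close together, and the log2 change was -0.58 ± 0.12 (adjusted p = 0.0051).

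In the small subunit, 7 of 20 tested members fell and 0 rose by limma, with 0 higher at an unadjusted p under 0.05 and 0 risen with voom on recovered reads. MRPS35, a mitochondria-specific protein, had 1.68 and 1.47 FPKM with guide 3 and 1.65 and 1.96 FPKM with guide 5, against 3.16, 3.12 and 2.41 FPKM with sgRosa. No guide library reached the lowest control, and the log2 change was -0.63 ± 0.14 (adjusted p = 0.00716). MRPS31, also mitochondria-specific, had 0.710 and 0.541 FPKM with guide 3 and 0.618 and 0.914 FPKM with guide 5, against 1.24, 1.68 and 1.01 FPKM with sgRosa. Its log2 change was -0.59 ± 0.15 (adjusted p = 0.0122), with 0.0565 as the highest adjusted p when a library was left out. Several members, MRPS31 and MRPL42 among them, have pseudogene copies elsewhere in the genome, and how the counting shared such reads is not given in the sources used here. The other 5 small-subunit genes that fell were MRPS33, MRPS23, MRPS27, MRPS17 and MRPS10, with log2 changes of -0.57 to -0.49. MRPS27, a protein with pentatricopeptide repeats, stayed past the threshold in all 20 alternatives that tested it, as did MRPL50, MRPL19, MRPS35 and MRPL39 among the falls; the limit of a mean FPKM of at least 5 leaves these 5 out. MRPL34 among the rises stayed past it in all 21. The other 8 large-subunit genes that fell were MRPL30, MRPL35, MRPL22, MRPL47, MRPS30, MRPL18, MRPL15 and MRPL16, with log2 changes of -0.54 to -0.42.

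The 3 members that rose belong to the large subunit. MRPL41, a mitochondria-specific protein (ENSG00000182154, chromosome 9, 137551199 to 137552555, plus strand), had 43.8 and 60.5 FPKM with guide 3 and 31.1 and 22.6 FPKM with guide 5, against 19.1, 14.9 and 26.2 FPKM with sgRosa. Guide 3 lay above all controls, while guide 5 replicate 2 lay below the highest control (log2 change 0.90 ± 0.22, adjusted p = 0.0105). MRPL34, a short protein with a bacterial relative, had 7.32 and 9.77 FPKM with guide 3 and 6.11 and 5.05 FPKM with guide 5, against 3.36, 3.14 and 4.71 FPKM with sgRosa. Its groups did not overlap, and the log2 change was 0.82 ± 0.18 (adjusted p = 0.00605). MRPL28, again with a bacterial relative, had 31.0 and 34.5 FPKM with guide 3 and 26.8 and 21.3 FPKM with guide 5, against 17.7, 16.1 and 24.5 FPKM with sgRosa. The log2 change of MRPL28 was 0.53 ± 0.19 (adjusted p = 0.0416); its call was lost under 12 of the 21 alternatives, among them quantile scaling (0.109) and leaving out guide 5 replicate 1 (0.160), and after correction for GC content its change was -0.11.

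**Figure D2:**
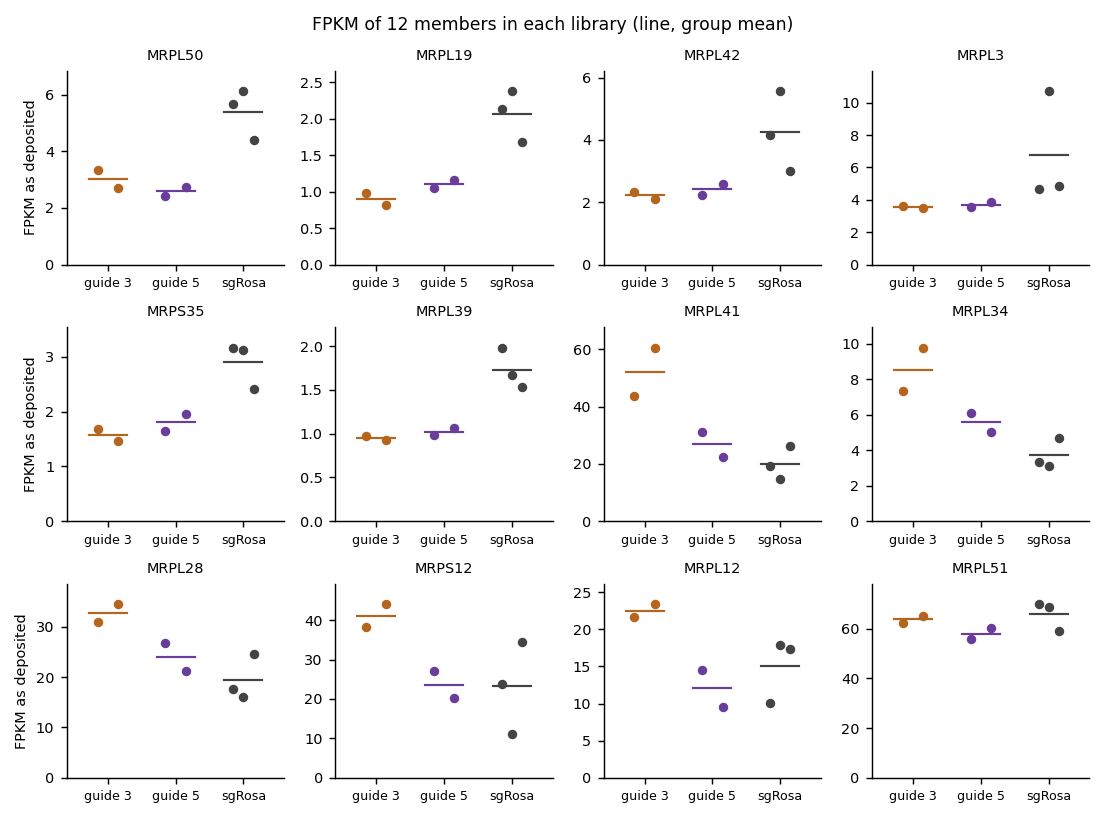
Deposited FPKM (y axis, from 0) of 12 members in each library of guide 3, guide 5 and sgRosa; points are libraries and lines group means. MRPL50, MRPL19, MRPL42, MRPL3, MRPS35 and MRPL39 are lower in all guide libraries than in any sgRosa library, MRPL3 with 1 high control, while MRPL41, MRPL34, MRPL28, MRPS12 and MRPL12 are highest with guide 3.

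By position and descent the counts ran as follows. In the large subunit 14 of 41 tested members fell and 3 rose (median log2 change -0.24), and in the small subunit 7 of 20 fell (median -0.35). Of members with a bacterial counterpart 12 of 40 fell and 2 rose (median -0.24), and of mitochondria-specific members 9 of 21 fell and 1 rose (median -0.35). The stalk, which recruits translation factors, was represented by MRPL10, MRPL11, MRPL12 and MRPL54, of which 0 fell and 0 rose, with changes from -0.25 to 0.36; 0 passed at an unadjusted p under 0.05 as well, and 0 with voom. In the central protuberance, the contact to the small subunit at the top of the large one, 1 of 5 tested members fell, MRPL18, beside the 19.7% of all tested genes. MRPS36, which belongs to neither subunit, had a log2 change of -0.18 ± 0.12 (adjusted p = 0.231). No difference between these classes was tested. None of the MRPS18 paralogs, relatives of one bacterial protein, passed the test: MRPS18A had a log2 change of 0.16 ± 0.15 (adjusted p = 0.399), MRPS18B of -0.08 ± 0.15 (adjusted p = 0.664) and MRPS18C of -0.38 ± 0.20 (adjusted p = 0.141).

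Changes of the members followed the GC content of their transcripts. Among members with under 45% GC 14 of 19 fell and 0 rose; with 45% to 55% GC 7 of 26 fell and 0 rose; with 55% GC or more 0 of 17 fell and 3 rose. At an unadjusted p under 0.05, and with voom, each of these counts of 0 stayed at 0. The same classes of all tested genes had 990 of 2192 fallen and 92 risen, 322 of 2157 fallen and 319 risen, and 27 of 2434 fallen and 1115 risen. Few genes of any kind thus rose under 45% GC (4.20%) or fell at 55% GC or more (1.11%), while 14.8% rose at 45% to 55%. Spearman's rho between GC and log2 change was 0.83 over the 62 members and 0.68 over all 6783 tested genes, a description across genes that share libraries. Control libraries differed along this axis too: genes in the lowest decile of GC had a median of 0.26 in sgRosa replicate 2 and of -0.26 in sgRosa replicate 3 relative to the control mean (log2). After each library was corrected for GC content and transcript length, 27 of the 62 members fell, or 43.5%, and 1 rose, MRPL34, where 25.6% of all tested genes fell and 18.1% rose. The median of the members was then -0.28, against -0.087 for all tested genes. The 27 held 12 of the 21 members above and 15 that were not called before. MRPL50 had a corrected change of -0.40 (adjusted p = 0.00469), MRPL19 of -0.37 (adjusted p = 0.00429) and MRPS35 of -0.31 (adjusted p = 0.0186). Falls that lost their call included MRPL3 (-0.43, adjusted p = 0.117), MRPS33 (-0.23, adjusted p = 0.203) and MRPL22 (-0.13, adjusted p = 0.213). Corrected values of GC-rich members went the other way: MRPL41 came to 0.02 (adjusted p = 0.912), MRPS26 to -0.65 (adjusted p = 0.0134) and MRPS18A to -0.28 (adjusted p = 0.0355). The part of GC content in these changes was not tested beyond this correction.

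**Figure D3:**
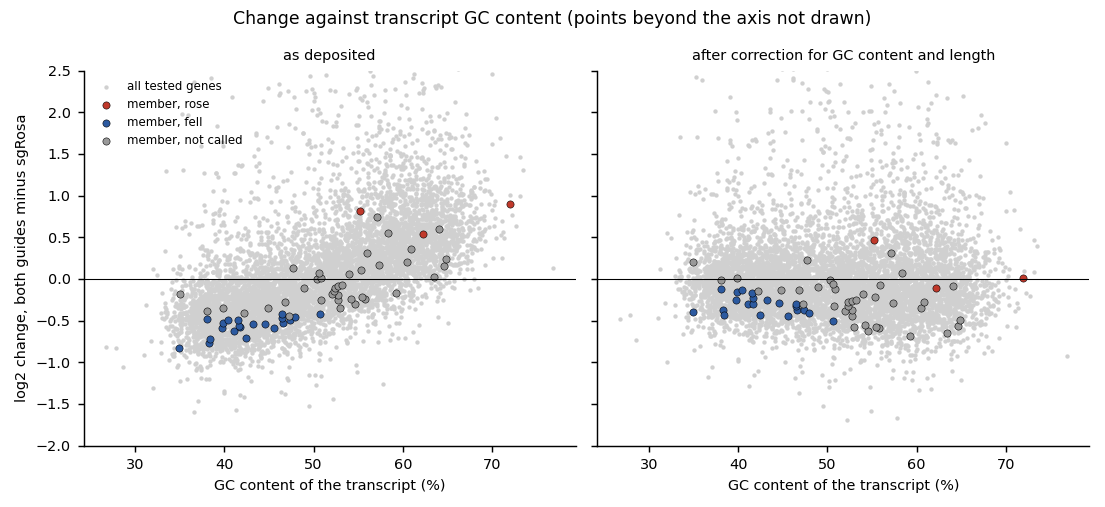
Log2 change for both guides minus sgRosa (y axis) against GC content of the representative transcript in percent (x axis), for all 6783 tested genes (small grey points) and the 62 tested members (colored by call in the uncorrected fit), as deposited on the left and corrected on the right. Members slope upward on the left (rho 0.83) and not on the right (rho -0.15), where 55 of them lie below 0.

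Members with TATTTAT in the 3′ UTR, shown above, had 7 of 8 tested members fallen and a median log2 change of -0.55. Of the 54 tested members without the letters 14 fell and 3 rose (median -0.21). Over all tested genes the shares were 27.1% fallen and 18.7% risen with the letters, and 17.2% fallen and 24.3% risen without them. The members that hold them had a median GC content of 40.4% and a median 3′ UTR of 2575 bases, against 50.8% and 326 bases in members without. After the GC and length correction 3 of the 8 fell, with a median of -0.20, which is above the median of -0.29 of members without the letters. MRPL17, with 24.9 and 28.01 FPKM with guide 3 and 21.6 and 20.05 FPKM with guide 5, against 18.6, 20.9 and 25.1 FPKM with sgRosa, had a log2 change of 0.13 ± 0.16 (adjusted p = 0.524).

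Each guide was also set against the same 3 controls, so the following counts share those libraries. Guide 3 had 12 members fallen, where 17.2% of all tested genes fell, and 5 risen, where 23.5% rose, which is 19.4% and 8.06% of the 62. The 5 were MRPL41, MRPL34, MRPL28, MRPL4 and MRPL55. With quantile scaling guide 3 had 2 risen and 21 fallen, where 19.3% of all tested genes rose and 26.9% fell. With a common sum of FPKM guide 3 had 2 risen and 30 fallen, where 14.95% of all tested genes rose and 39.1% fell. All tested genes had a median log2 change of -0.25 with that common sum. Guide 5 had 11 fallen, or 17.7%, where 7.42% of all tested genes fell, and 0 risen, where 12.4% rose. With voom on recovered reads 0 rose too, where 12.7% of all genes did. At an unadjusted p under 0.05 by limma, 1 member was higher with guide 5 and 26 were lower. The median log2 change was -0.15 with guide 3 and -0.36 with guide 5, where all tested genes had 0.04 and -0.05. Falls were called with each guide for 8 members, MRPL50, MRPL19, MRPS35, MRPL32, MRPL39, MRPS33, MRPL30 and MRPS27. Negative changes with each guide were found for 38 members, positive ones with each for 9, and a positive change with guide 3 beside a negative one with guide 5 for 15. Without sgRosa replicate 2 guide 3 had 4 risen and 18 fallen, where 29.9% of all tested genes rose and 18.7% fell. In the same fit guide 5 had 0 risen and 23 fallen, where 18.7% of all tested genes rose and 12.2% fell. With a guide library left out that guide keeps 1 library, so members called are not counted here and medians are given. The guide 3 median of the members was -0.16 without replicate 2 and -0.18 without replicate 1, where all tested genes had 0.03 in each. The guide 5 median was -0.34 without replicate 1 and -0.35 without replicate 2, where all tested genes had -0.08 and -0.03. Without sgRosa replicate 1 guide 5 had 1 member fallen, where 2.597% of all tested genes fell.

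The authors' deposited table, which tests each guide over control with a method of its own on all 11581 listed genes, gave 14 members fallen and 5 risen with guide 3 at a false discovery rate under 0.05, where 19.3% and 20.4% of all listed genes did. With guide 5 the authors' deposited table gave 16 fallen and 0 risen, where 7.82% and 11.8% of listed genes did. The median log2 fold change of the 71 members in the authors' deposited table was -0.20 with guide 3 and -0.41 with guide 5. Counted on recovered reads with voom, a limma fit that weighs values by depth and that admits all 71 members, 26 fell, or 36.6%, and 5 rose, or 7.04%, for both guides against sgRosa, where 21.2% and 20.8% of all 11408 genes did. All 21 falls of the FPKM fit were among the 26. Of the 9 members below the FPKM limit, MRPL1 (-0.89 ± 0.18, adjusted p = 0.00196), MRPS9 (-0.85 ± 0.20, adjusted p = 0.00449), MRPS28 (-0.74 ± 0.28, adjusted p = 0.0485) and MRPS22 (-0.50 ± 0.18, adjusted p = 0.0367) fell by that fit. MRPL23 rose (0.93 ± 0.28, adjusted p = 0.0174), and MRPL33, MRPL38, MRPL48 and MRPS6 did not pass. MRPL1 had 0.436 and 0.397 FPKM with guide 3 and 0.462 and 0.496 FPKM with guide 5, against 0.818, 1.02 and 0.681 FPKM with sgRosa, with no overlap. MRPL23 had 0.534 and 0.679 FPKM with guide 3 and 0.450 and 0.414 FPKM with guide 5, against 0.280, 0.159 and 0.419 FPKM with sgRosa, where the highest control lay above the lowest guide 5 library.

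**Figure D4:**
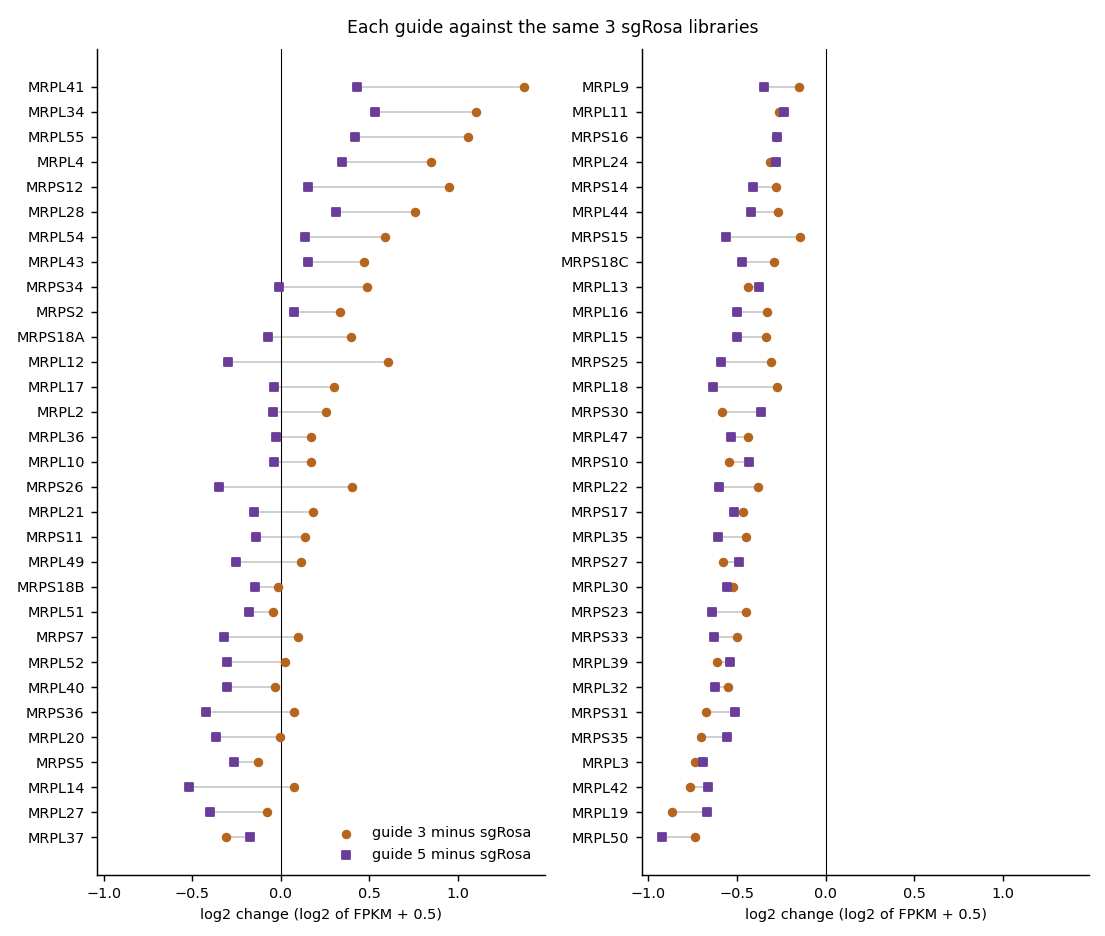
Log2 change of each tested member with guide 3 (circles) and guide 5 (squares), each minus the same 3 sgRosa libraries (x axis, log2 of FPKM + 0.5); grey lines join the values of a member. For MRPL50 the marks stand at -0.92 with guide 5 and -0.74 with guide 3. For MRPL41, among the GC-rich members at the start of the order, they stand at 0.43 with guide 5 and 1.37 with guide 3.

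Tested directly, guide 5 against guide 3 gave 0 of 62 members past the threshold by limma, where 0.457% of all tested genes were higher and 0.28% lower. The lowest adjusted p was 0.245, and 7 members had an unadjusted p under 0.05, a share close to the 11.4% of all tested genes. A recount with voom gave 0 as well, where 0.447% and 0.114% of all genes were called, and a fit of the guide libraries alone gave 9 members, all lower with guide 5, or 14.5%, where 9.14% of all tested genes were lower and 3.64% higher. In all, 48 of 62 members were lower with guide 5, against 59.3% of all tested genes. The largest differences were those of MRPL41, MRPL12, MRPS12 and MRPS26. MRPL41 was lower with guide 5 by a log2 difference of -0.94 (95% interval -1.59 to -0.29, adjusted p = 0.249). MRPL12, a stalk protein that also binds the mitochondrial RNA polymerase, had 14.5 and 9.59 FPKM with guide 5, against 21.7 and 23.3 FPKM with guide 3, beside 10.0, 17.9 and 17.3 FPKM with sgRosa. The guide libraries did not overlap, with a difference of -0.90 (95% interval -1.57 to -0.24, adjusted p = 0.279); 68.2% of its exon bases are shared on the same strand with another annotated gene, AC139530.2, so its reads need not be its own. MRPS12, at the decoding site of the small subunit, had 27.2 and 20.1 FPKM with guide 5, against 38.3 and 44.0 FPKM with guide 3, beside 23.9, 11.2 and 34.5 FPKM with sgRosa. The controls alone spanned most of that range, and the guide difference was -0.80 (95% interval -1.72 to 0.13, adjusted p = 0.483). MRPS26, a mitochondria-specific small-subunit protein, had 15.9 and 10.7 FPKM with guide 5, against 21.3 and 23.4 FPKM with guide 3 (difference -0.75, 95% interval -1.47 to -0.04, adjusted p = 0.407). At the other end the differences of MRPS30, MRPL19, MRPS31 and MRPS35 were 0.22, 0.20, 0.16 and 0.15, with intervals that hold 0; that of MRPS30 ran from -0.25 to 0.70.

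Levels were compared between genes as CPM per kilobase of a representative GENCODE 29 transcript. On this scale MRPL33, a large-subunit protein with a bacterial relative, was highest, at 267 ± 12.7 in guide libraries and 280 ± 83.5 with sgRosa (SD, n = 4 and n = 3). The next 4 by the sgRosa level were, in guide libraries, MRPL13 at 119 ± 8.61, MRPL3 at 86.9 ± 4.07, MRPL18 at 114 ± 17.9 and MRPL15 at 99.4 ± 7.07; other members, such as MRPS34 at 111 ± 24.05, stood between them there. With sgRosa MRPL13 was at 170 ± 40.2, MRPL3 at 161 ± 81.5, MRPL18 at 156 ± 6.58 and MRPL15 at 135 ± 16.5. The sgRosa levels of MRPL13, MRPL3 and MRPL18 lie within an SD of a neighbour, so the order of these members is not settled by these libraries, while MRPL18 and MRPL15 differ by more than the SD of either. By CPM per kilobase of all exon bases with sgRosa, MRPL15 ranked 1, MRPL18 2, MRPL3 3, MRPL33 4 and MRPL13 16, so the first place of MRPL33 depends on the transcript chosen. Of the exon bases of MRPL33 21.1% are shared on the same strand with BABAM2. MRPL13 did not pass the test (log2 change -0.41 ± 0.16, adjusted p = 0.0607), while MRPL18 (-0.45 ± 0.14, adjusted p = 0.0272) and MRPL15 (-0.42 ± 0.15, adjusted p = 0.0427) fell; MRPL15 lost its call under 10 of 21 alternatives and MRPL18 under 7. At the low end stood MRPL38, at 1.02 ± 0.252 in guide libraries and 1.10 ± 0.280 with sgRosa, MRPS17 at 4.23 ± 0.468 in guide libraries and 6.46 ± 0.841 with sgRosa, and MRPL42 at 5.41 ± 0.491 in guide libraries and 9.88 ± 2.97 with sgRosa. The level of MRPL42 is divided by the long transcript described above. MRPL38, MRPS28 and MRPL12 share over 30% of their exon bases on the same strand with another gene. Over the 71 members the order by transcript and the order by all exon bases had a Spearman's rho of 0.79.

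**Figure D5:**
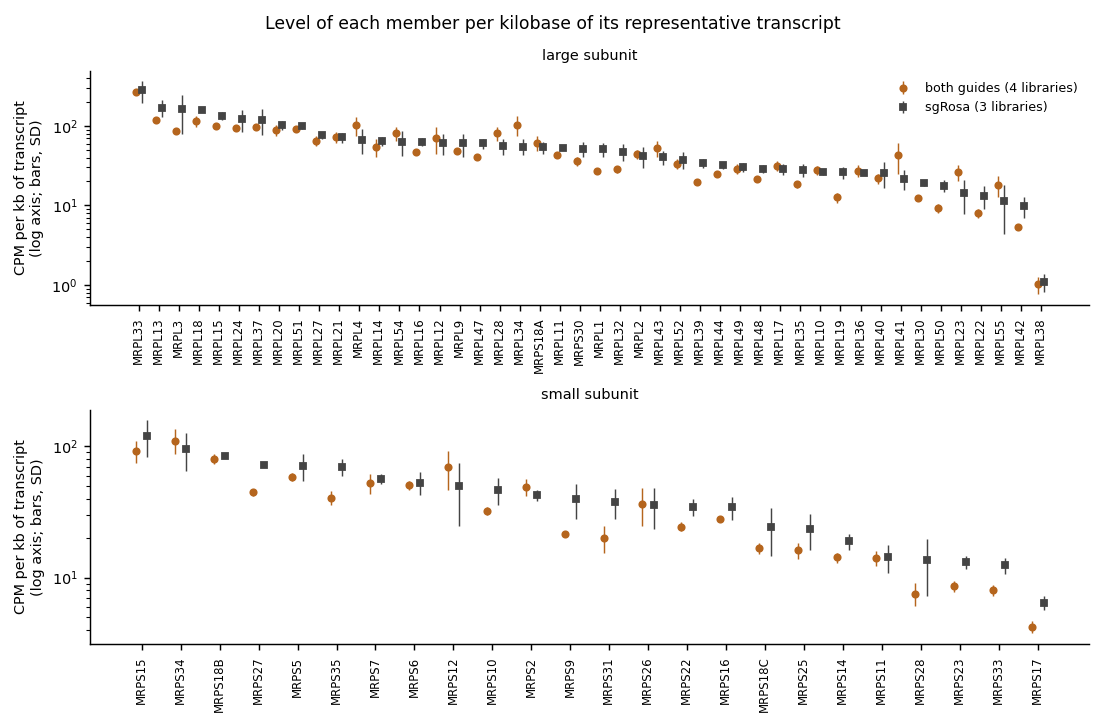
Level of the 46 large-subunit and 24 small-subunit members in CPM per kilobase of its representative transcript (y axis, log scale), large subunit above and small subunit below, ordered by the sgRosa mean; points are group means and bars SD over 4 guide libraries (circles, left of each pair) and 3 sgRosa libraries (squares). MRPL33 is the highest (267 in guide libraries, 280 with sgRosa) and MRPL38 the lowest (1.02 in guide libraries, 1.10 with sgRosa).

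Genes that work beside the members were counted by the same fit, in which 19.7% of all tested genes fell and 22.5% rose; these lists are short, and nothing particular to them was tested. Of 5 mitoribosome proteins listed here without an MRP symbol, which need not be all of them, 1 fell. This was PTCD3, a pentatricopeptide protein of the small subunit. PTCD3 had 2.97 ± 0.195 FPKM in guide libraries against 4.85 ± 0.785 FPKM with sgRosa (SD, n = 4 and n = 3). Its log2 change was -0.62 ± 0.15 (adjusted p = 0.00953). DAP3, AURKAIP1, CHCHD1 and GADD45GIP1 were not called. Of 15 tested factors that assemble the mitoribosome 3 fell and 1 rose (median -0.04). FASTKD2, an RNA-binding protein of the large-subunit assembly, fell (-0.63 ± 0.15, adjusted p = 0.00874), as did C1QBP (-0.49 ± 0.17, adjusted p = 0.0407), while the assembly protein MPV17L2 rose (0.82 ± 0.18, adjusted p = 0.00594). Of 12 tested mitochondrial translation factors 4 fell (median -0.21), led by the elongation factors GUF1 (-0.68 ± 0.19, adjusted p = 0.0185) and GFM1 (-0.62 ± 0.15, adjusted p = 0.0102). TUFM, the most abundant of them, had 100 ± 9.30 FPKM in guide libraries against 79.8 ± 18.9 FPKM with sgRosa and was not called (0.35 ± 0.19, adjusted p = 0.169).

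Among 13 tested genes of mitochondrial transcription and biogenesis 6 fell and 1 rose (median -0.34), beside the same 19.7% and 22.5% of all tested genes. TFAM, which packs mitochondrial DNA and starts its transcription, had 5.41 ± 0.925 FPKM in guide libraries against 11.6 ± 1.58 FPKM with sgRosa (SD, n = 4 and n = 3; log2 change -1.04 ± 0.16, adjusted p = 0.000798). This fall was larger than that of any tested member on the scale of log2(FPKM + 0.5), which understates changes of low genes. SSBP1, the mitochondrial single-strand DNA-binding protein, fell as well (-0.75 ± 0.15, adjusted p = 0.0040). GABPA, the DNA-binding subunit of the ETS factor GABP, fell to 0.806 ± 0.181 FPKM in guide libraries, against 1.23 ± 0.251 FPKM with sgRosa (-0.41 ± 0.14, adjusted p = 0.0374). ESRRA, a nuclear receptor of mitochondrial genes, rose (1.07 ± 0.22, adjusted p = 0.00493), and YY1 (-0.34 ± 0.16, adjusted p = 0.0993) and MYC (0.05 ± 0.19, adjusted p = 0.847) were not called. NRF1 was below the FPKM limit and was not tested. After the GC and length correction TFAM (-0.63, adjusted p = 0.00958), SSBP1 (-0.45, adjusted p = 0.00472), PTCD3 (-0.32, adjusted p = 0.00893), C1QBP (-0.58, adjusted p = 0.00601), GFM1 (-0.27, adjusted p = 0.0229) and GUF1 (-0.29, adjusted p = 0.0282) stayed past the threshold. FASTKD2 (-0.25, adjusted p = 0.0980), MPV17L2 (0.27, adjusted p = 0.0632), ESRRA (0.44, adjusted p = 0.0834) and GABPA (0.02, adjusted p = 0.768) did not. The correction also added calls, such as a fall of MYC (-0.44, adjusted p = 0.0417). By the corrected fit 7 of 15 assembly factors fell and 1 rose. Of the translation factors 6 of 12 fell, and of the transcription and biogenesis genes 8 of 13, with 0 risen in either list. Of all tested genes 25.6% fell and 18.1% rose by that fit.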

How the data were processed

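Poly(A) RNA of 7 MOLM13 libraries was sequenced single-end from directional libraries, per the labels' protocols. The submitters' processing notes name STAR 2.5.3, HTSeq, edgeR and limma with GRCh38.p7 and hg38; whether counting used strand is not given in the sources used here. The authors' deposited FPKM are reads scaled by gene length and by an adjusted library size. A second table deposited by the authors gives, for each guide over control, log2 fold changes with p-values and false discovery rates, beside group means of CPM. Of 11581 listed genes 173 have no value. Mean CPM over mean FPKM gave each gene's length, equal to the gene span in GENCODE 29 for 8064 genes and 59 members; the product of FPKM and length was a whole number of reads (within 0.01) for 100% of values. A read stood for 0.0261 to 0.0540 CPM. Reads carry no molecular identifiers.

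The 6783 genes that reached 1 FPKM in 2 or more libraries were fitted with limma 3.58.1 (R 4.3.3) on log2(FPKM + 0.5). Each of the 3 groups had its own mean, and variances were moderated along a trend, with 4 residual and 6.21 prior degrees of freedom. Tests were two-sided, adjusted by Benjamini-Hochberg over all tested genes, threshold 0.05. GC correction removed from each library a natural spline (5 degrees of freedom) on transcript GC content and on log2 length. The added 0.5 understates changes of low genes. Sequences came from RefSeq (GRCh38.p14) and GENCODE 29. Python 3.11.15 and pandas 2.3.3 were used for tables. The fit was tested on simulated data. No 2 libraries held the same values.

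The named members were the 8 highest and 8 lowest changes among those called, 4 at each end of the guide difference, 5 highest and 3 lowest levels, the MRPS18 paralogs, MRPL12 and MRPS12, and called members of the pathway lists. The members, lists, classes and motifs were chosen with earlier results of these data known. Guides are numbered 3 and 5 in the tables and otherwise in the labels, and nothing used here pairs them. Members not listed with a value were not analysed here. Alternatives were other pseudocounts, filters, scalings, designs, a replicate block, GC correction and each library left out; recovered CPM and voom were added after the data were seen.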

Additional observations from a re-analysis of the deposited data

How the results depend on the processing

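The median log2 change of the members for both guides stayed negative in all 21 alternatives. That of guide 5 did in all 21 it was fitted with. The guide 3 median was 0.06 over the 34 members at a mean FPKM of at least 5, where all tested genes had 0.21. It was negative in the other alternatives. Rises for both guides, 3 as reported, came to 1 with GC correction, where 18.1% of all tested genes rose. The replicate block gave 7, where 25.4% did. Recovered CPM and voom gave 5 each, where 20.9% and 20.8% of all genes rose. Leaving out an sgRosa library gave 2 to 6, where 15.6% to 27.8% of all tested genes rose. Falls, 21 as reported, came to 6 of 34 at a mean FPKM of at least 5, where 14.6% of all tested genes fell. A common sum of FPKM gave 33, where 36.3% did. Leaving out an sgRosa library gave 13 to 23, where 12.9% to 25.2% did. Rises with guide 3 (5) came to 2 with quantile scaling, a common sum or GC correction, where 19.3%, 14.95% and 16.3% of all tested genes rose. The replicate block gave 11, where 27.2% did. With an sgRosa library left out 2 to 9 rose, where 17.4% to 29.9% of all tested genes did. Falls with guide 3 (12) came to 1 at mean FPKM of at least 5, where 12.02% of all tested genes fell. Quantile scaling gave 21, where 26.9% did, and a common sum gave 30, where 39.1% did. The compared groups alone gave 7, where 12.6% did. Voom on listed reads as library size gave 22, where 26.9% of all genes fell. With an sgRosa library left out 7 to 18 fell, where 11.4% to 23.3% of all tested genes did. Rises with guide 5 (0) came to 2 with the replicate block, where 16.8% of all tested genes rose. With an sgRosa library left out 0 to 2 rose, where 8.41% to 18.7% of all tested genes did. Falls with guide 5 (11) came to 2 at mean FPKM of at least 5, where 6.73% of all tested genes fell. Quantile scaling gave 19, where 15.2% did, and a common sum gave 21, where 14.97% did. GC correction gave 17, where 17.4% did, and the replicate block gave 18, where 15.6% did. The compared groups alone gave 2, where 2.65% did. Voom gave 17 and voom on listed reads 20, where 8.34% and 12.8% of all genes fell. With an sgRosa library left out 1 to 23 fell, where 2.597% to 14.8% of all tested genes did. Between guides, 2 members were called lower with guide 5 with the replicate block, where 1.81% of all tested genes were. The compared groups alone gave 9, where 9.14% were. The median (-0.25) moved to -0.10 at mean FPKM of at least 5, -0.35 with quantile scaling, -0.42 with a common sum, where all genes moved to -0.19, and -0.19 with median of ratios scaling, and ran from -0.29 to -0.22 with a library left out. GC correction turned MRPL28 to -0.11, MRPS26 to -0.65 and MRPS18A to -0.28. The cause of these moves was not tested, except that the FPKM filter left fewer members. Correlations of the deviations of same-numbered libraries ran from -0.57 to 0.44. With 2 libraries per guide, deviations from a guide mean mirror each other, so these values cannot decide whether libraries were paired. The block gives sgRosa replicate 3 a level of its own, so that library adds nothing to the changes; leaving it out gave 6 rises. Of the 24 called members 6 held in every alternative that tested them and 1 changed sign. The planned count tests with edgeR and DESeq2 were not run; voom on recovered reads was.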
